A study of Rattus norvegicus with 36 samples.

Results

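A set of 6 genes of cytotoxic lymphocytes was followed through a rat lung RNA-seq experiment: the granzymes Gzma and Gzmk, perforin (Prf1), the granule protein Nkg7, and the chemokines Ccl5 and Xcl1. They were taken by name from the deposited table of gene counts, where they make up 6 of 27308 genes, and all 6 passed the filter on low counts that left 15570 genes to test. The animals were adult, age-matched Sprague Dawley rats of 200 to 240 g in which CRISPR-Cas9 had put human SLC39A12, the gene of the zinc transporter ZIP12, in place of the rat gene, and all 3 arms carried this allele. In the first arm rats breathed 10% oxygen at normal pressure for 2 weeks and received the anti-ZIP12 antibody APL-9796 at 10 mg/kg into the peritoneum, beginning 48 h ahead of hypoxia and repeated every 3 days. The second arm had the same hypoxia and the same dosing with a control IgG, and the third stayed in normoxia. Each arm had 12 libraries, 6 from females and 6 from males. No antibody is named for normoxic rats; between normoxia and either other arm, hypoxia and the injected antibody therefore cannot be told apart. Whether every library stems from a different rat is not given, and the p-values below speak of spread among libraries. The series concerns ZIP12 in pulmonary hypertension, a disease that chronic hypoxia models in rats.

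NK cells and cytotoxic T cells kill by secreting the content of lytic granules onto a target cell. Perforin opens pores in the target membrane, and granzymes, which are serine proteases, enter and cleave proteins inside. Nkg7 is a membrane protein of these granules that promotes their release. The same cells secrete chemokines: Ccl5 (RANTES) attracts T cells and monocytes and is made by other cell types as well, and Xcl1 (lymphotactin) attracts dendritic cells bearing Xcr1. The lung holds a large pool of NK cells in its vessels. In whole lung RNA, fewer cells of a type and less RNA of a gene per cell cannot be told apart.

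Gzma (rCG_44848 in the deposited table) and Gzmk (rCG_44446) are neighbouring coding genes on rat chromosome 2 in RefSeq's annotation of the assembly GRCr8, which gives Prf1 (rCG_21957) on chromosome 20, Nkg7 (rCG_54573) on chromosome 1, Ccl5 (rCG_35282) on chromosome 10 and Xcl1 (rCG_46098) on chromosome 13. Since most of the members varied together between libraries, their promoters are shown from RefSeq's promoter table of the same assembly, 250 bases before to 50 bases after each gene's start, 5′ to 3′ on the gene's strand. A promoter was matched for 5 of the 6 genes, and for Ccl5 none is shown. Capitals mark matches on either strand to short cores of factors that act in cytotoxic lymphocytes: the RUNX core TGTGGT, which reads ACCACA on the other strand, the ETS core GGAAGT, which reads ACTTCC there, and the T-box core GGTGTGA.
Gzma chr2:46485647-46485946 (- strand): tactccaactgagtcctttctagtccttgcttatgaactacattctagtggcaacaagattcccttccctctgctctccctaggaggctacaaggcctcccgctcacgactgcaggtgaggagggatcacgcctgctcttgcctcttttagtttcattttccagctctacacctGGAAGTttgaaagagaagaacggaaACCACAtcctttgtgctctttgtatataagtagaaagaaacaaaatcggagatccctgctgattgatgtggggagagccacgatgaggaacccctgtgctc
Gzmk chr2:46581966-46582265 (- strand): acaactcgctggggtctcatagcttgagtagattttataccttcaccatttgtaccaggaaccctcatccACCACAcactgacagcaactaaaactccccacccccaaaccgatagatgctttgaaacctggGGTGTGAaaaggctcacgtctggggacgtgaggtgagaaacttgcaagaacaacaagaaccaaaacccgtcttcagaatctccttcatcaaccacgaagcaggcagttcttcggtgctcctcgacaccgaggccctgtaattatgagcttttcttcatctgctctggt
Prf1 chr20:29788790-29789089 (+ strand): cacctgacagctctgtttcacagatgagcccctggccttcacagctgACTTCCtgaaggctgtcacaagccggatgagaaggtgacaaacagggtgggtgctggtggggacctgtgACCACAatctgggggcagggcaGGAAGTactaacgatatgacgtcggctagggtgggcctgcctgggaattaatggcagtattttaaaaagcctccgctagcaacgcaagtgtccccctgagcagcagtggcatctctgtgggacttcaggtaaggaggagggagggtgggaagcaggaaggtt
Nkg7 chr1:102981247-102981546 (+ strand): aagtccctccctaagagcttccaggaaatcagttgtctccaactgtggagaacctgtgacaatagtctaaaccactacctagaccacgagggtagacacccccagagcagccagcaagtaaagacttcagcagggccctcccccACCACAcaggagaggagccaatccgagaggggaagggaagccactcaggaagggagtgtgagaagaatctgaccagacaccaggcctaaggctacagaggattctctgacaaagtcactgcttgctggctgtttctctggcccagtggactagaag
Xcl1 chr13:79785391-79785690 (- strand): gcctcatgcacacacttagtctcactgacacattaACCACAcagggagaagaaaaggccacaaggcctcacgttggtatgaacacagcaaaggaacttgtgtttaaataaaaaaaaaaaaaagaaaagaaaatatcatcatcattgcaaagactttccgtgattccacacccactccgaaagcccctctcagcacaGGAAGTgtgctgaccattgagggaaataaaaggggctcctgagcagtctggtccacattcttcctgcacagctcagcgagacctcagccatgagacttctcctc
A RUNX core was present in 5 of 5 members' windows, in each case as ACCACA, and in 17.3% of the 33469 promoters of the table. An ETS core was present in 3 of 5 (Gzma, Prf1 and Xcl1) and in 22.6% of all promoters. The T-box core was present in Gzmk alone, 1 of 5, and in 3.83% of all promoters. A kB-like motif, GGGNNTTCC, was in 0 of 5 and in 5.92% of all promoters. No 2 of these matches overlapped within a window. These are matches of letters and carry no measurement of binding.

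All 6 genes were lowest on average in hypoxia with APL-9796, between in hypoxia with IgG and highest in normoxia. Against normoxia, 6 of 6 were lower with APL-9796 and 5 of 6 with IgG at a false discovery rate (FDR) under 0.05. In the same comparisons 8.93% of all tested genes were lower with APL-9796 and 6.19% with IgG, and 18% and 12.5% changed in either direction. The median log2 fold change of the 6 genes was −0.77 with APL-9796 and −0.53 with IgG, beside −0.02 over all tested genes in each comparison. Both comparisons use the same 12 normoxic libraries. FDR is the Benjamini-Hochberg adjusted p of edgeR's quasi-likelihood test over all 15570 genes, and levels are CPM, counts relative to the scaled library total, which allow a gene to be compared between libraries but not one gene with another.

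Gzma, a tryptase-like granzyme, had the lowest log2 fold change of the 6 in both comparisons. Its level ran from 4.92 to 11.4 CPM with a median of 8.36 in the 12 APL-9796 libraries, from 4.82 to 11.1 with a median of 8.67 in IgG libraries, and from 10.0 to 27.5 with a median of 15.01 in normoxic libraries. The hypoxic arms overlapped little with normoxia: 9 of 12 APL-9796 libraries and 8 of 12 IgG libraries lay below every normoxic library, and 12 of 12 in both arms lay below the normoxic median. The mean was 8.35 ± 2.29 CPM with APL-9796, 8.57 ± 2.00 with IgG and 16.2 ± 4.98 in normoxia (SD, n = 12 each). The log2 fold change was −0.95 ± 0.15 (SE, FDR = 1.95e-05 by edgeR) with APL-9796 and −0.91 ± 0.15 (FDR = 4.29e-05) with IgG, a fall by 48.1% and by 46.7%.

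Gzmk, a second granzyme of tryptase type, ran from 8.06 to 17.9 CPM with a median of 13.6 in APL-9796 libraries, from 12.0 to 19.4 with a median of 15.3 in IgG libraries, and from 16.1 to 45.2 with a median of 20.6 in normoxic libraries. In both hypoxic arms 12 of 12 libraries lay below the normoxic median, and 8 APL-9796 and 7 IgG libraries lay below every normoxic library. The normoxic range was stretched by 1 female library at 45.2 CPM, number 9, the next female being at 25.6. Gzmk fell by 0.77 on the log2 scale (SE 0.14, FDR = 8.71e-05 by edgeR) with APL-9796 and by 0.60 (SE 0.13, FDR = 0.00188) with IgG. Without female normoxic libraries 8 and 9, which earlier results of these data had set apart, the changes were −0.56 (FDR = 0.000567) and −0.39 (FDR = 0.0172).

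Prf1, the pore former, ran from 22.2 to 53.6 CPM with a median of 33.6 in APL-9796 libraries, from 28.4 to 51.2 with a median of 39.1 in IgG libraries, and from 28.1 to 74.6 with a median of 56.0 in normoxic libraries. Its arms overlapped more than those of the granzymes, since normoxic female 12, at 28.1 CPM, lay within the hypoxic range: 1 of 12 APL-9796 and 0 of 12 IgG libraries lay below every normoxic one. All 12 libraries of each hypoxic arm were nevertheless below the normoxic median. The log2 fold change was −0.59 ± 0.13 (SE, FDR = 0.00171 by edgeR) with APL-9796 and −0.50 ± 0.13 (FDR = 0.00975) with IgG.

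Nkg7, which promotes granule release, ran from 5.65 to 12.1 CPM with a median of 9.26 in APL-9796 libraries, from 7.91 to 14.4 with a median of 10.8 in IgG libraries, and from 9.85 to 20.9 with a median of 14.04 in normoxic libraries. With APL-9796, 8 of 12 libraries lay below every normoxic library and the log2 fold change was −0.64 ± 0.13 (SE, FDR = 0.00042 by edgeR). With IgG, 5 of 12 lay below every normoxic library and the change was −0.40 ± 0.13 (FDR = 0.0319). The IgG call was the least secure of the 5. It was lost in 12 of 36 fits that left out 1 library each, namely male IgG 1, 2, 5 or 6, female IgG 7, 10 or 12, male normoxia 1, 5 or 6, or female normoxia 9 or 10, with FDR up to 0.0959. It was also lost with sequencing run as a term (FDR = 0.0716) and in the largest run alone (FDR = 0.101).

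The chemokine Ccl5 ran from 16.5 to 36.9 CPM with a median of 26.1 in APL-9796 libraries, from 25.3 to 39.0 with a median of 32.7 in IgG libraries, and from 29.2 to 69.7 with a median of 46.6 in normoxic libraries. Of 12 normoxic libraries 10 exceeded every library of either hypoxic arm. The mean was 26.1 ± 6.88 CPM with APL-9796, 31.99 ± 4.33 with IgG and 47.1 ± 11.05 in normoxia (SD, n = 12 each). Ccl5 fell by 0.85 on the log2 scale (SE 0.12, FDR = 4.59e-06 by edgeR) with APL-9796 and by 0.56 (SE 0.12, FDR = 0.00167) with IgG.

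Xcl1 was a low gene, lower with APL-9796 and not called with IgG. Each library held between 1 and 27 of its reads, 63 in all in APL-9796 libraries, 105 in IgG libraries and 121 in normoxic libraries. Its level ran from 0.131 to 0.911 CPM with a median of 0.417 with APL-9796, from 0.328 to 1.10 with a median of 0.778 with IgG, and from 0.456 to 1.49 with a median of 0.680 in normoxia. APL-9796 libraries lay below the normoxic median in 10 of 12 cases and IgG libraries in 5 of 12. The log2 fold change with APL-9796 was −0.78 ± 0.25 (SE, FDR = 0.0292 by edgeR). With IgG it was −0.16 ± 0.24 (FDR = 0.712), with a 95% interval from −0.64 to 0.32, so that a fall as large as that of Ccl5 could not be told from none at this depth. The APL-9796 call was lost in 9 of 36 fits that left out 1 library each, namely male APL-9796 3, 5 or 6, female APL-9796 7 or 10, male normoxia 1 or 5, or female normoxia 9 or 10, with FDR up to 0.0763.

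**Figure D1:**
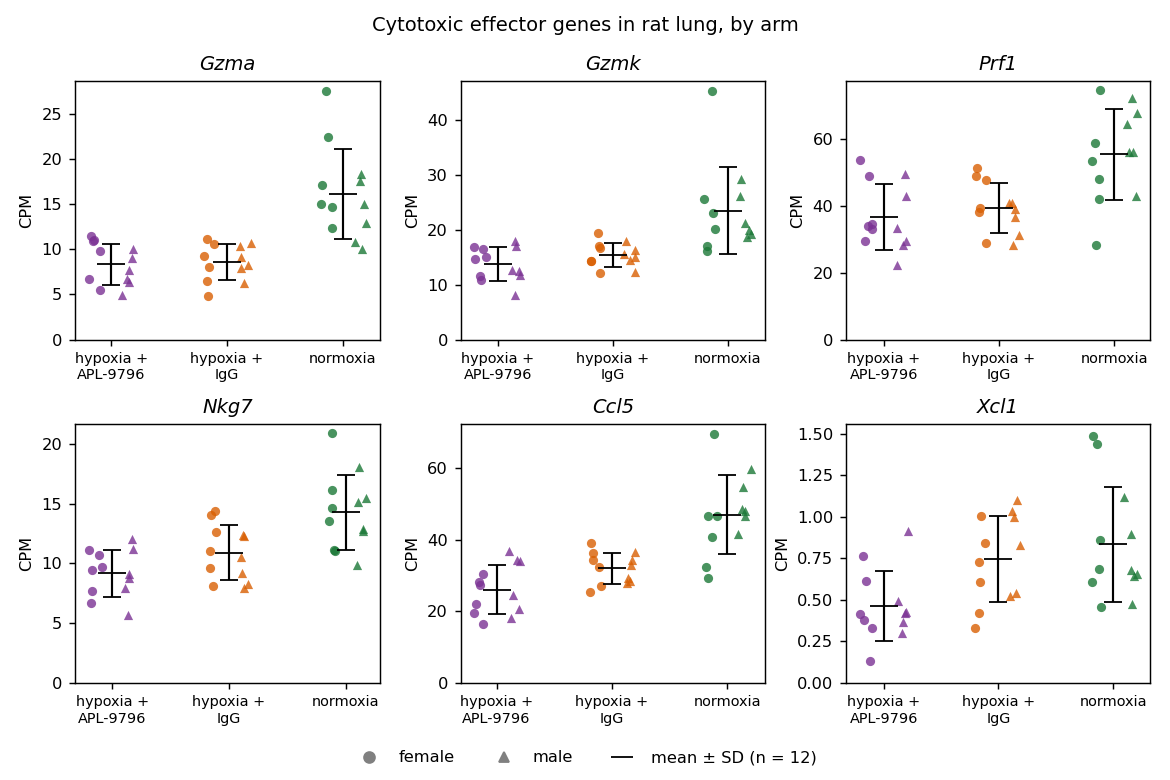
Level of each of the 6 genes in CPM (vertical axes, from 0) in every library of hypoxia with APL-9796, hypoxia with IgG and normoxia; circles are females, triangles are males, and bars give the mean and SD of 12 libraries. For Gzma, Gzmk, Prf1 and Ccl5 every library of both hypoxic arms lies below the normoxic median, whereas the ranges of Xcl1 with IgG and in normoxia overlap.

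Set against IgG in hypoxia, APL-9796 gave no call. All 6 genes had a negative log2 fold change, from −0.62 (Xcl1) to −0.04 (Gzma), with a median of −0.20, and 0 of 6 passed (smallest FDR = 0.967 by edgeR). Over all genes 0.0% were called in this comparison. Unadjusted p-values were under 0.05 for 2 of the 6 genes and for 626 genes in all with edgeR; DESeq2 called 0 of the 6 and 1 gene in all, with 2 and 631 under 0.05 unadjusted, and limma-voom called 0 and 0, with 3 and 2441 unadjusted. The 2 members were the chemokines: Ccl5 at −0.29 (95% interval −0.55 to −0.04, unadjusted p = 0.0242 by edgeR) and Xcl1 at −0.62 (−1.14 to −0.10, unadjusted p = 0.0209 by edgeR). The intervals of the other four genes reached from −0.35 to 0.28 for Gzma, from −0.44 to 0.12 for Gzmk, from −0.37 to 0.18 for Prf1 and from −0.50 to 0.02 for Nkg7. For Gzma, Gzmk, Prf1, Nkg7 and Ccl5 the upper limit lay below the rise that would undo the change with IgG against normoxia. Those changes were −0.91, −0.60, −0.50, −0.40 and −0.56, with SE from 0.12 to 0.15. They are estimates that rest on the same IgG libraries. For Gzma the sign of the small difference turned positive in the largest run alone (0.12) and with limma-voom (0.08).

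**Figure D2:**
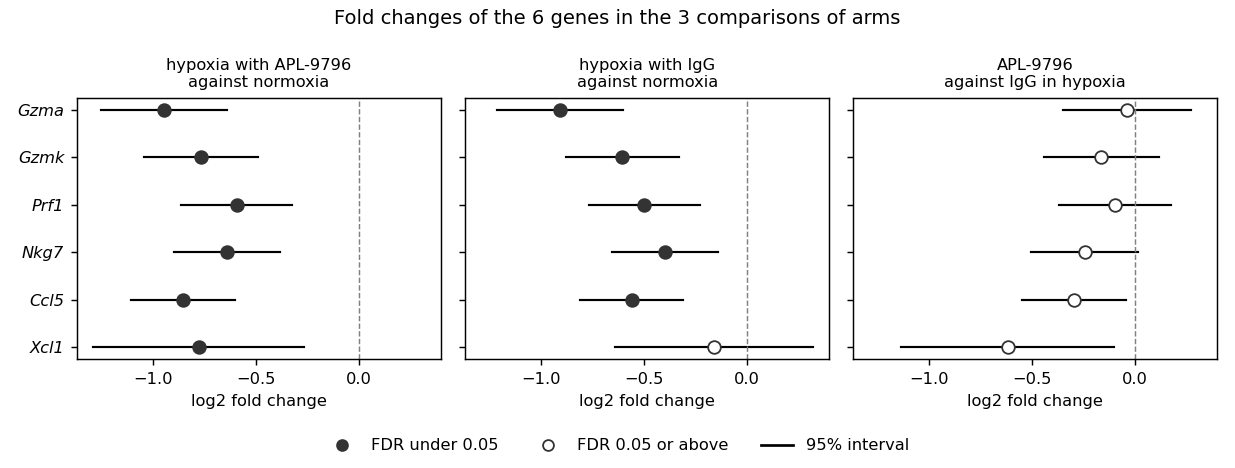
Log2 fold changes of the 6 genes (horizontal axes) with 95% intervals from the edgeR fit, in hypoxia with APL-9796 against normoxia, hypoxia with IgG against normoxia, and APL-9796 against IgG in hypoxia; filled points have an FDR under 0.05. All 6 points are filled in the first panel, 5 in the second (Xcl1 at −0.16 is open) and 0 in the third.

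Within each sex 5 genes were lower with APL-9796 and 2 with IgG, and 0 of 6 passed the test of a sex difference in the effect of hypoxia with IgG or of APL-9796 against IgG. A sex difference in the effect of hypoxia with APL-9796 against normoxia was not tested. In females 5 of 6 genes were lower with APL-9796 (12.5% of all genes were) and 2 of 6 with IgG, Gzma and Gzmk (8.27% of all genes). In males 5 of 6 were lower with APL-9796 (1.4% of all genes) and 2 of 6 with IgG, Prf1 and Ccl5 (1.22% of all genes). The counts with IgG rested on single libraries: in males 0 genes were called without male IgG 1 or 5 or male normoxia 1 or 5, and 1 without male IgG 3 or 4 or male normoxia 6, and in females 1 was called without IgG 12 or normoxia 9. The counts with APL-9796 within a sex were not refitted under other settings or with libraries left out. With APL-9796, Nkg7 in males passed at FDR = 0.0478 and Xcl1 in females at FDR = 0.03 by edgeR. Gzma with IgG changed by −1.14 ± 0.21 in females (FDR = 0.000443 by edgeR) and by −0.68 ± 0.21 in males (FDR = 0.0773). Prf1 with IgG changed the other way round in size, by −0.27 ± 0.19 in females (FDR = 0.333) and by −0.73 ± 0.19 in males (FDR = 0.0212). The female minus male difference in the effect of hypoxia with IgG was −0.46 ± 0.30 for Gzma (unadjusted p = 0.134 by edgeR) and 0.46 ± 0.27 for Prf1 (unadjusted p = 0.0933). None of the 6 genes passed for this difference (2 genes or 0.0128% of all did with edgeR, against 53 with DESeq2 and 418 with limma-voom, and 0 of the 6 had an unadjusted p under 0.05), nor for the sex difference in the effect of APL-9796 against IgG (0.0% of all genes, 0 of 6 unadjusted). DESeq2 called 0 of 6 in both as well, and limma-voom 0 of 6 in both with 1 and 0 unadjusted. Females against males over all arms gave 0 of 6 calls with edgeR, DESeq2 and limma-voom, with 0 of 6 unadjusted in each, beside 1.65% of all genes with edgeR; the differences ran from −0.12 (Ccl5) to 0.19 (Gzma).

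The 36 libraries had totals of 6.07 to 20.8 M counts with a median of 11.1 M. Codes in their read file names set them in 3 groups of 26, 9 and 1 libraries, taken here as sequencing runs. The runs were uneven over groups: the largest run held 5 female and 5 male APL-9796 libraries, 2 female and 5 male IgG libraries, and 3 female and 6 male normoxic libraries. The second run held 2 normoxic libraries, both female, and the third held normoxic female 8 alone. Prf1 averaged 38.2 ± 9.58 CPM with APL-9796 (n = 10), 39.6 ± 6.06 with IgG (n = 7) and 60.6 ± 10.1 in normoxia (n = 9) within the largest run, and the 2 normoxic libraries of the second run, at 28.1 and 41.9 CPM, lay below every normoxic library of the largest run. In the largest run alone the 4 genes Gzma, Gzmk, Prf1 and Ccl5 remained lower in both comparisons, with log2 fold changes of −0.98, −0.84, −0.66 and −0.91 with APL-9796 and −1.10, −0.72, −0.56 and −0.68 with IgG (FDR up to 0.00124 and up to 0.0329 by edgeR). In that run Nkg7 was lower with APL-9796 (−0.71, FDR = 0.00237) but not with IgG (−0.51, FDR = 0.101), and Xcl1 passed in neither (−0.78, FDR = 0.0705 with APL-9796; −0.13, FDR = 0.85 with IgG). Gzma, Gzmk, Prf1 and Ccl5 were called in both comparisons in all 36 fits that left out 1 library and in all 11 other settings.

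The 6 genes did not all fall to the same extent with IgG. The ratio of 2 genes within a library was taken as the difference of their log2 CPM with a prior count of 2. Library scaling enters it through that prior count, which weighs most on a low gene such as Xcl1. The ratio was compared between arms by permuting arms within each sex (100000 resamples, two-sided, 15 pairs adjusted together). This comparison was chosen after the values were seen. With IgG against normoxia, the ratio of Gzma to Nkg7 changed by −0.50 on the log2 scale (adjusted p = 0.0087, permutation test), that of Gzma to Xcl1 by −0.77 (adjusted p = 0.0118), to Ccl5 by −0.35 (adjusted p = 0.0221) and to Gzmk by −0.33 (adjusted p = 0.0184). The other 11 pairs did not pass. With APL-9796 against normoxia 0 of 15 pairs passed (Nkg7 against Ccl5 had the smallest unadjusted p, 0.00584, at 0.23), nor did any with APL-9796 against IgG.

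Within groups, 5 of the 6 genes varied together from library to library. Each level, as log2 CPM with a prior count of 2, was taken as a deviation from the mean of its group of arm and sex, so that arm and sex do not enter, and the 15 pairs were tested by permutation within groups (100000 resamples, two-sided). All 15 Pearson correlations over the 36 libraries were positive, and 10 of 15 passed after Benjamini-Hochberg adjustment, by r and by Spearman's rho alike: the 10 pairs among Gzma, Gzmk, Prf1, Nkg7 and Ccl5. The closest pair was the neighbouring granzymes Gzma and Gzmk (r = 0.847, adjusted p = 7.5e-05; rho = 0.862, adjusted p = 5e-05; r = 0.844 without the 2 libraries farthest from the median of Gzma). Next was Gzmk with Ccl5 (r = 0.794, adjusted p = 7.5e-05; rho = 0.754, adjusted p = 5e-05; r = 0.732 without 2 libraries). The unadjusted p of both pairs, 1e-05, is the smallest these permutations can give. The loosest of the 10 was Gzma with Prf1 (r = 0.628, adjusted p = 0.000567; rho = 0.644, adjusted p = 0.000375; r = 0.628 without 2 libraries).

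Xcl1 stood outside this set: its 5 correlations ran from 0.0636 with Gzma (adjusted p = 0.742; rho = 0.103, adjusted p = 0.627; r = 0.24 without 2 libraries) to 0.316 with Prf1 (adjusted p = 0.14; rho = 0.282, adjusted p = 0.176; r = 0.204 without 2 libraries). Its levels rest on at most 27 reads in a library and carry a large counting error. Deviations of Prf1 also went with the library total (r = 0.469), while those of Gzma, Nkg7, Ccl5, Gzmk and Xcl1 had lower r (0.0174, 0.103, 0.185, 0.205 and 0.297). In the largest run alone the same count of pairs passed, 10 of 15, with r from 0.508 to 0.831 among the 5 genes. Sequencing run and library total were otherwise not removed from the deviations. How often pairs of other genes reach such r was not computed. Vps26c and Farsb, which are not members of the set, had r of 0.76 and 0.72 with Gzmk over 36 libraries.

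**Figure D3:**
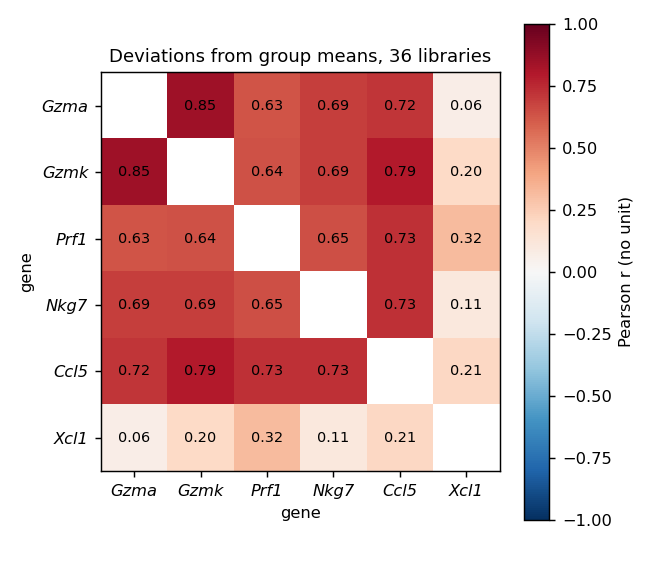
Pearson r between the 6 genes over 36 libraries, computed on log2 CPM after subtracting the mean of each group of arm and sex; the colour scale runs from −1 to 1 and the diagonal is blank. The 10 pairs without Xcl1 lie between 0.63 and 0.85 and the 5 with Xcl1 between 0.06 and 0.32.

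Within single arms fewer pairs passed in hypoxia than in normoxia, by counts that depend on the coefficient, and the difference between arms was not tested. Here the log2 CPM levels themselves were correlated, with no group mean removed, and the 12 libraries were permuted over both sexes. A difference between sexes can therefore enter these values, unlike those over 36 libraries. Among the 12 APL-9796 libraries 5 of 15 pairs passed by r and 8 by rho, with Gzma and Gzmk at r = 0.897 (adjusted p = 0.0012, permutation test; r = 0.812 without 2 libraries). Among the 12 IgG libraries 2 of 15 passed by r and 0 by rho: Gzma with Gzmk (r = 0.773, adjusted p = 0.0212; r = 0.489 without 2 libraries) and Gzma with Ccl5 (r = 0.77, adjusted p = 0.0212; r = 0.781 without 2 libraries). Among the 12 normoxic libraries 12 of 15 passed by r and 10 by rho. There 4 of the 5 pairs with Xcl1 passed by r and 3 by rho. Its r was 0.729 with Gzmk (adjusted p = 0.0142; 0.512 without 2 libraries), 0.692 with Nkg7 (adjusted p = 0.0242; 0.627 without 2), 0.612 with Ccl5 (adjusted p = 0.0498; 0.461 without 2) and 0.603 with Gzma (adjusted p = 0.0498; 0.578 without 2). The pair with Ccl5 did not pass by rho (0.476, adjusted p = 0.132), and the pair with Prf1 passed by neither (r = 0.414, adjusted p = 0.194; rho = 0.497, adjusted p = 0.12). The Xcl1 relations were negative with Gzmk among IgG libraries (r = −0.517, adjusted p = 0.144) and close to 0 among APL-9796 libraries (−0.0545, adjusted p = 0.867).

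**Figure D4:**
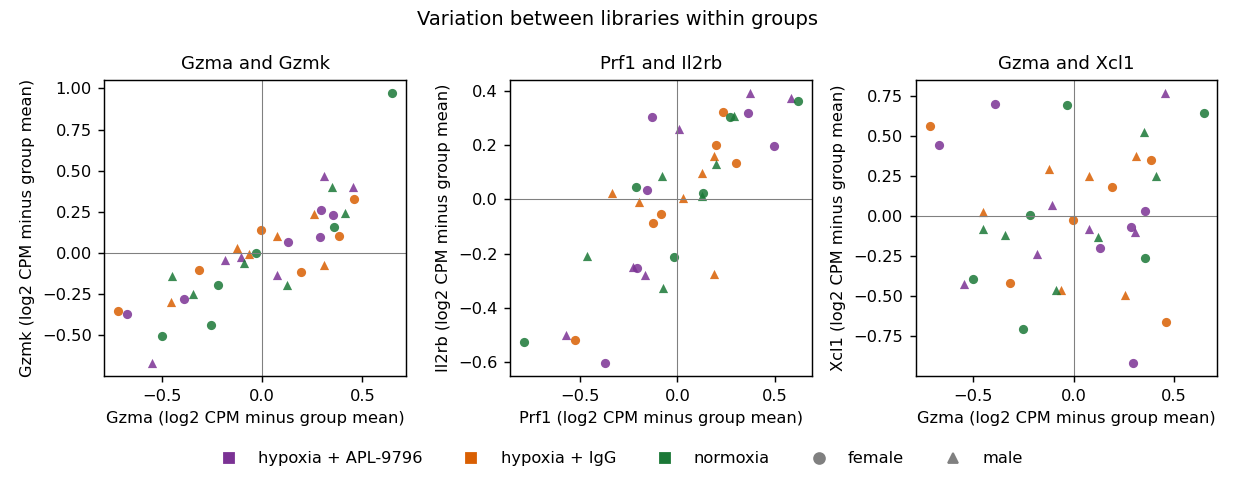
Deviation of log2 CPM from the group mean (both axes) for Gzma with Gzmk, Prf1 with Il2rb and Gzma with Xcl1, 1 point per library, coloured by arm with circles for females and triangles for males. Points of all 3 arms line up for Gzma and Gzmk (r = 0.847) and for Prf1 and Il2rb (r = 0.802), and scatter for Gzma and Xcl1 (r = 0.0636).

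The genes most like the 6 in library-to-library pattern included receptors and adaptors of NK and T cells, but not only these. Of 8727 named genes with a mean of at least 1 CPM, Il2rb, a subunit of the receptors for IL-2 and IL-15, had the highest r with the mean of the 6 genes' scaled deviations (0.79 over 36 libraries), followed by Sh2d1a, the signalling adaptor SAP of NK and T cells (0.74), Cd8a, the co-receptor of cytotoxic T cells (0.70), and Klrd1, the CD94 chain of NK receptors (0.68). The next were Cdhr1 (0.66), Cd53 (0.64), Btk (0.63), Siae (0.63), the chemokine receptor Cx3cr1 (0.63) and Vps26c (0.62). Single members had Il2rb at the top for Prf1 (r = 0.80) and Ccl5 (0.78), Sh2d1a for Gzma (0.72), Vps26c for Gzmk (0.76), Rgs18 for Nkg7 (0.68) and Gstcd for Xcl1 (0.61). Second were Il2rb for Gzma (0.65), Farsb for Gzmk (0.72) and Cdhr1 for Prf1 (0.67). Cd8a was second for Nkg7 (0.68) and Ccl5 (0.74), and Myct1 for Xcl1 (0.60). These r are given as a description, since the genes were picked as the highest of 8727.

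Il2rb was also lower in both hypoxic arms. It ran from 14.9 to 29.2 CPM with a median of 24.7 in APL-9796 libraries, from 18.1 to 32.8 with a median of 24.03 in IgG libraries, and from 22.05 to 45.7 with a median of 35.1 in normoxic libraries. Its log2 fold change was −0.61 ± 0.12 (SE, FDR = 0.000242 by edgeR) with APL-9796 and −0.53 ± 0.11 (FDR = 0.00151) with IgG. Cd8a was at −0.47 ± 0.13 (FDR = 0.0107) with APL-9796 and −0.22 ± 0.13 (FDR = 0.28) with IgG. Myct1, second for Xcl1, was higher in both, at 0.52 (FDR = 0.00343) with APL-9796 and 0.41 (FDR = 0.0253) with IgG. Farsb, second for Gzmk, passed in neither, at −0.22 (FDR = 0.0689) with APL-9796 and −0.14 (FDR = 0.326) with IgG. Vps26c, the closest to Gzmk, passed in neither (−0.13, FDR = 0.182 with APL-9796; −0.11, FDR = 0.312 with IgG).

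Of 31 listed receptors and adaptors of NK cells 11 were tested. With APL-9796 7 of 11 were lower and 0 higher, and with IgG 1 of 11 was lower and 0 higher, where 8.93% and 6.19% of all genes were lower. All 11 had a negative log2 fold change in both (median −0.43 with APL-9796 and −0.31 with IgG). Hcst, the DAP10 adaptor of NKG2D, averaged 2.32 ± 0.478 CPM with APL-9796, 2.95 ± 0.547 with IgG and 3.52 ± 0.726 in normoxia (SD, n = 12 each), a log2 fold change of −0.58 (FDR = 0.00165 by edgeR) with APL-9796 and −0.25 (FDR = 0.221) with IgG. Cd226, the activating receptor DNAM-1, was the gene lower in both, at −0.59 (FDR = 0.00777) with APL-9796 and −0.51 (FDR = 0.0248) with IgG. Fcgr3a, the Fc receptor CD16 that NK cells share with myeloid cells, was at −0.41 (FDR = 0.00798) with APL-9796 and −0.25 (FDR = 0.138) with IgG, and Sh2d1a at −0.61 (FDR = 0.0138) and −0.44 (FDR = 0.0934). The count with APL-9796 fell to 3 of 11 without female normoxic libraries 8 and 9, and the count with IgG to 0.

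Cytokines and cytokine receptors of cytotoxic lymphocytes went both ways. Of 12 tested (17 listed), 4 were lower and 2 higher with APL-9796, and 4 lower and 1 higher with IgG. Of all genes 8.93% and 6.19% were lower in these comparisons, and 18% and 12.5% changed in either direction. Lower in both were Il2rb, the IL-12 receptor chain Il12rb2 (−0.66, FDR = 0.00303 with APL-9796; −0.76, FDR = 0.000853 with IgG), the IL-18 receptor Il18r1 (−0.40, FDR = 0.00457; −0.33, FDR = 0.0209) and Tnfsf10, the death ligand TRAIL (−0.37, FDR = 0.0177; −0.39, FDR = 0.015). Il2rg, the common gamma chain that pairs with Il2rb but is carried by lymphocytes at large, was higher in both (0.29, FDR = 0.000992 with APL-9796; 0.27, FDR = 0.00231 with IgG). The IL-12 subunit Il12a was higher with APL-9796 (1.03, FDR = 0.0142) at a level of 1.002 ± 0.568 CPM, against 0.478 ± 0.249 CPM in normoxia. Il15 and Il18, which are among the cytokines that act on NK cells, did not pass. Il15 was at −0.12 (FDR = 0.337) with APL-9796 and −0.17 (FDR = 0.215) with IgG, and Il18 at −0.18 (FDR = 0.258) and −0.12 (FDR = 0.491).

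The machinery that loads and releases granules serves many cell types besides lymphocytes. Other granzymes were listed together with this machinery. Of 10 tested genes (20 listed, 12 in the deposited table), 3 were lower with APL-9796 and 2 with IgG, where 8.93% and 6.19% of all genes were. In neither comparison was a gene of the list higher (medians −0.09 and −0.11). Ctsc, the cathepsin C that activates granzymes, was at −0.37 (FDR = 0.000198 by edgeR) with APL-9796 and −0.33 (FDR = 0.00097) with IgG, and Rab27a, which docks granules at the membrane, at −0.21 (FDR = 0.007) and −0.18 (FDR = 0.0258). Cst7, cystatin F, an inhibitor of cathepsin C, was lower with APL-9796 (−0.43, FDR = 0.0343), and at −0.11 (FDR = 0.652) with IgG. Another listed granzyme, Gzmn, was at 0 counts in every library.

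Among transcription factors of cytotoxic lymphocytes 0 of 8 tested (12 listed) were lower in either comparison. Tbx21 (T-bet) was at −0.35 (FDR = 0.138) with APL-9796 and −0.21 (FDR = 0.434) with IgG, and Runx3 at −0.18 (FDR = 0.456) and 0.04 (FDR = 0.909). Ets1, which is also expressed in endothelium, was higher in both (0.57, FDR = 2.04e-06 with APL-9796; 0.53, FDR = 7.51e-06 with IgG), and Prdm1 (Blimp-1) was higher with APL-9796 (0.38, FDR = 0.0422). Of 12 other chemokine ligands and receptors tested (16 listed), 11 had a negative log2 fold change in both comparisons (medians −0.21 with APL-9796 and −0.27 with IgG), and 1 was lower and 1 higher with APL-9796, and 0 lower and 1 higher with IgG. Cxcl10, a ligand of Cxcr3, was higher in both (0.63, FDR = 0.0137 with APL-9796; 0.60, FDR = 0.0221 with IgG), and S1pr5, the sphingosine receptor of circulating NK cells, was lower with APL-9796 (−0.43, FDR = 0.0296) and at −0.33 (FDR = 0.118) with IgG. Ccr1, a receptor of Ccl5, did not pass, at −0.22 (FDR = 0.0965) with APL-9796 and −0.23 (FDR = 0.0925) with IgG.

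**Figure D5:**
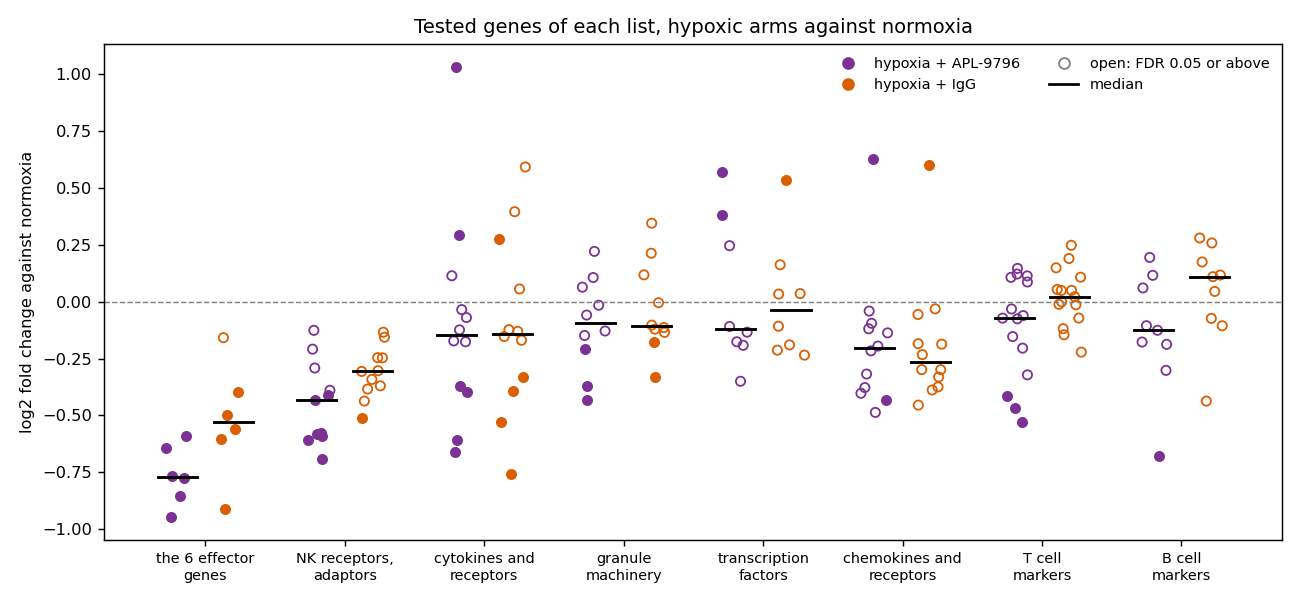
Log2 fold change against normoxia (vertical axis) of each tested gene of the 6 effector genes, 5 pathway lists and the T and B cell marker lists, for hypoxia with APL-9796 (left of each pair) and hypoxia with IgG (right); filled points have an FDR under 0.05 and bars are medians. The effector genes have the lowest medians, −0.77 and −0.53, followed by NK receptors at −0.43 and −0.31, while T cell markers lie at −0.07 and 0.02.

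Markers of T cells as a whole had medians near 0, at −0.07 with APL-9796 and 0.02 with IgG. Of 15 tested (20 listed), 3 were lower with APL-9796 and 0 with IgG, where all genes came to 8.93% and 6.19%; the 3 were Cd8a, Cd8b (−0.53, FDR = 0.049) and Cd247, the zeta chain that NK cells use as well (−0.42, FDR = 0.0198). Cd3e was at −0.32 (FDR = 0.169) with APL-9796 and 0.05 (FDR = 0.865) with IgG, and Cd4, which rat macrophages also carry, at −0.03 (FDR = 0.815) and −0.00101 (FDR = 0.995). The summed level of the 15 markers ran from 148.5 to 201.3 CPM with APL-9796, from 149.5 to 231.1 with IgG and from 141.9 to 246.5 in normoxia, and none of them was at 0. The members' mean log2 level relative to that sum within each library, given as a description, differed from normoxia by −0.88 for Gzma, −0.69 for Gzmk, −0.55 for Prf1, −0.58 for Nkg7, −0.81 for Ccl5 and −0.61 for Xcl1 with APL-9796. With IgG the differences were −0.95 for Gzma, −0.62 for Gzmk, −0.54 for Prf1, −0.45 for Nkg7, −0.59 for Ccl5 and −0.18 for Xcl1.

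Markers of platelets and alveolar type II cells were lower beside the members. Of 4 platelet markers tested, 3 were lower with APL-9796 and 4 with IgG, with medians of −0.72 and −0.79, and their sum ran from 18.8 to 65.4 CPM with APL-9796, from 19.7 to 37.1 with IgG and from 25.98 to 57.5 in normoxia. Of 4 alveolar type II markers, 4 were lower with APL-9796 and 3 with IgG (medians −0.36 and −0.33). In the same comparisons 8.93% and 6.19% of all genes were lower. B cell markers gave 1 of 9 lower and 0 of 9, plasma cell markers 1 of 4 lower and 0 of 4, mast cell and basophil markers 0 of 8 and 1 of 8 lower. Markers of neutrophils (9), of monocytes and macrophages (7) and of erythroid cells (4) gave 0 calls in both. Dendritic cell markers moved both ways, with 2 of 6 lower and 1 higher in both comparisons, and so did endothelial markers, with 3 of 9 lower and 3 higher with APL-9796 and 4 lower and 3 higher with IgG. Of 5 club and ciliated cell markers 1 was lower with APL-9796, and 1 was lower and 1 higher with IgG. Of 5 lymph node and germinal centre markers 1 was lower and 1 higher with APL-9796, and 1 was higher with IgG. Of 8 adipocyte markers 1 was higher with APL-9796 and 5 with IgG (medians 0.07 and 1.26), and of 7 cardiac and skeletal muscle markers 3 were higher with APL-9796 and 0 with IgG (medians 1.74 and 0.65), where 1413 and 983 of all 15570 genes were higher. The adipocyte sum ran from 163.5 to 316.9 CPM with APL-9796, from 168.5 to 632.6 with IgG and from 103.8 to 220.3 in normoxia, and the muscle sum from 50.5 to 2510 CPM, from 46.7 to 704.4 and from 7.38 to 159.5 in the same arms. No marker of these lists was at 0. Over 90 relations between the members and the summed markers of 15 cell types, on deviations from group means in 36 libraries, none passed after adjustment. The smallest adjusted p, 0.0819, was that of Prf1 with T cell markers (r = 0.553; rho = 0.575, adjusted p = 0.099; r = 0.509 without 2 libraries) and of Gzmk with erythroid markers (r = 0.557; rho = 0.509, adjusted p = 0.211; r = 0.557 without 2 libraries). With group means removed, these relations hold no difference between arms. The part of these cell types in the members' change was not tested.

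Of the coding genes on either side of the 2 granzymes, Esm1 was lower in both comparisons and Gpx8 was not called. The order on chromosome 2 in GRCr8 is Gpx8, Gzma, Gzmk and Esm1. Gpx8, a peroxidase of the endoplasmic reticulum, was at 0.05 (FDR = 0.774 by edgeR) with APL-9796 and 0.07 (FDR = 0.735) with IgG, with r = 0.39 to Gzmk. Esm1, an endothelial proteoglycan, fell by 1.70 (FDR = 3.81e-13) and by 1.91 (FDR = 2.87e-14) on the log2 scale. Its deviations within groups had r = −0.0156 with those of Gzmk next to it over 36 libraries, where Gzma and Gzmk had 0.847.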

How the data were processed

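Lung RNA of 36 libraries was measured by RNA-seq. The authors deposited whole-number read counts per gene, not normalized; the submitters' processing notes name DESeq2 1.24.0. Aligner, counter, strandedness and build are not given in the sources consulted, so a gene's reads cannot be told apart from those of an overlapping or antisense gene. A sheet deposited with the table gave arm, sex and read file names, and its arm and sex matched the labels in 36 of 36 libraries. Sequencing run is not stated there. It was inferred from codes in the read file names. Its line of totals held 0 counts and was left out. Gene names were brought to current symbols with RefSeq's table of GRCr8: 11123 of 27308 genes have one, 7466 directly and 3657 through an older symbol.

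Counts were fitted with edgeR 4.0.16 in R 4.3.3 (TMM scaling, the filterByExpr filter and the robust quasi-likelihood test), with the 6 groups of arm and sex in a single model, and contrasts over both sexes weighted them equally. The FDR threshold was 0.05. CPM were computed from TMM-scaled library sizes. Replicates differed by more than sampling noise in 90 of 90 pairs (chi-square per gene at least 3.86). Permutation tests were written with numpy 2.4.6. Alternatives were RLE size factors, other filters, limma 3.58.1 (voom with quality weights), DESeq2 1.42.0, the compared groups alone, a replicate block, sequencing run as a term, the largest run alone, 2 sets of libraries left out and each library left out. The edgeR fit was tested on simulated counts with changes placed in the IgG groups. The permutation tests, the DESeq2 and limma-voom fits and the motif search were not tested in this way. The members, the gene lists and the libraries left out were chosen with earlier results of these data known. Every member is named; of a pathway list up to 4 genes with the smallest p among those past the threshold, of marker lists up to 3 defining genes, and of like genes the 2 closest to a member and the 10 closest to their mean. Other genes named, among them Tbx21, Runx3, Il15, Il18 and Ccr1, were chosen after their values were seen. Counts of list genes under other settings were added after seeing the data.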

Additional observations from a re-analysis of the deposited data

Results flagged for a closer look

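Within the 36 combinations of a member, an arm and a sex, each of 6 libraries, 2 had a library far from the other five, where chance gives about 1.8. Gzmk in female normoxia 9 was at 45.2 CPM, and the nearest other female normoxic library was at 25.6 CPM. The same library was also the highest of its arm for Gzma (27.5 CPM), Nkg7 (20.9 CPM) and Ccl5 (69.7 CPM). Xcl1 in male APL-9796 1 was at 0.911 CPM, from 11 reads, and the nearest other male APL-9796 library was at 0.493 CPM.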

How the results depend on the processing

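Gzma, Gzmk, Prf1 and Ccl5 were lower in both hypoxic arms under every setting run, and Nkg7 was with APL-9796. Nkg7 with IgG lost its call in 5 of 11 settings beside single libraries left out (FDR up to 0.148), and Xcl1 with APL-9796 in 3 of 9 (FDR up to 0.0927); at least 1 CPM in 12 libraries and the compared groups alone left Xcl1 untested. All genes called with IgG against normoxia numbered 725 in the largest run, against 1947, and DESeq2 called 1 gene for APL-9796 against IgG, against 0. Females against males gave 607 genes with DESeq2 and 1373 with limma-voom, against 257. Members lower with IgG in males numbered 4 with limma-voom, with the compared groups alone and without female normoxia 8 and 9, and 1 in the largest run, against 2. In females they numbered 1 under each of limma-voom, the compared groups alone, run as a term, the largest run and without female normoxia 8 and 9, against 2. Single libraries left out gave 0 to 3 in males and 1 to 3 in females. The cause was not tested.

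Differences near 0 turned sign. With limma-voom these were Gzma for APL-9796 against IgG (0.085), Gzmk for females against males (−0.052) and, as female minus male effects, Gzmk in hypoxia with IgG (0.16) and Prf1 (0.027), Nkg7 (0.043) and Xcl1 (−0.041) in APL-9796 against IgG. In the largest run they were Gzma for APL-9796 against IgG (0.12), Xcl1 for females against males (0.17) and the female minus male effects of Nkg7 (−0.24) and Ccl5 (−0.12) in hypoxia with IgG and of Nkg7 (0.011) in APL-9796 against IgG. With run as a term they were Gzmk (−0.072) and Xcl1 (−0.017) in the sex difference of APL-9796 against IgG and Xcl1 for females against males (0.13). Without female normoxia 8 and 9 they were Gzmk for females against males (−0.046) and in the sex difference of hypoxia with IgG (0.27). Leaving out male APL-9796 5, male IgG 6 and female IgG 11 turned Prf1 (0.023) and Nkg7 (0.0039) in the sex difference of APL-9796 against IgG and Xcl1 for females against males (0.0035). Over single libraries left out, Gzma for APL-9796 against IgG ran from −0.10 to 0.017, sex differences of APL-9796 against IgG from −0.072 to 0.13 (Gzmk), −0.18 to 0.076 (Prf1) and −0.035 to 0.52 (Xcl1), the sex difference of Gzmk in hypoxia with IgG from −0.22 to 0.17, females against males from −0.011 to 0.12 (Gzmk) and −0.089 to 0.10 (Xcl1), and r of Gzma with Xcl1 from −0.033 to 0.17.

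Same-numbered libraries shared little of their deviations. Over 36 such pairs the median correlation was 0.0191 (−0.253 to 0.342, with 9 over 0.1), beside −0.00845 over pairs with different numbers. Whether the numbers mark matched rats cannot be told from these values. A replicate block left 1808 of all genes called with IgG and 2606 with APL-9796, and 4 and 6 members.

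The depth limits Xcl1 most, with 1 to 27 reads in a library. The build and the counting of overlapping genes are not given, the runs are uneven over groups, and no antibody is named for the normoxic arm.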
